A study of Mus musculus with 6 samples.

Results

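The regions described here are the short gaps between protein-coding genes that lie almost end to end on mouse chromosomes 1 to 19. RefSeq protein-coding genes (20661) were sorted by start, and each pair of neighbours that did not overlap and lay 1000 bp or less apart gave 1 gap. This gave 1924 gaps out of 18708 between non-overlapping neighbours, flanked by 3487 genes, of which 361 flanked 2 gaps. The gaps covered 661913 bp, 9 of them were 0 bp wide (the genes abut) and 3 lay inside a further coding gene. Strand was known for 16456 genes (79.6%), which placed 534 gaps between gene starts (head-to-head pairs), 406 between gene ends (tail-to-tail pairs) and 432 between the end of one gene and the start of the next (same-direction pairs). The other 552 gaps had an unknown strand on at least one side and are called not assigned. They include the 21 gaps of chromosome 18. Head-to-head gaps were narrow, with a median of 99.5 bp (quartiles 47 and 233.25), against 378 bp for tail-to-tail and 449 bp for same-direction gaps.

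Peak lists came from 6 CUT&RUN libraries of gastrocnemius muscle from 4-week-old male C57BL/6 mice, in a study of PHF2 in skeletal muscle. In CUT&RUN an antibody brings a nuclease to a histone mark, and the DNA cut free there is sequenced. All animals carried 2 floxed Phf2 alleles. Those called Ctrl (Phf2 flox/flox;Acta1 Cre-) had no Cre, and those called CKO (Phf2 flox/flox;Acta1 Cre+) had Cre under the promoter of skeletal muscle actin, so that other cell types of the muscle need not have lost Phf2. Ctrl gave 1 H3K4me3 list, 1 H3K9me2 list and 2 input lists. CKO gave 1 H3K9me2 list and 1 input list. H3K4me3 was thus mapped in Ctrl alone, in a library titled wild type. With 1 library for each mark and genotype nothing below has a replicate check, no test between genotypes was made, and intervals are exact 95% binomial (Clopper-Pearson) intervals that cover counting error alone.

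Trimethylation of histone H3 at lysine 4 (H3K4me3) sits on the nucleosomes around active or poised gene starts and is read by the PHD finger of PHF2. Dimethylation at lysine 9 (H3K9me2) is a mark of repressed chromatin. Where genes on opposite strands start next to each other, the stretch between them serves as a bidirectional promoter. Such promoters are usually rich in CpG and often belong to housekeeping genes, DNA repair genes and genes of mitochondria. Between the ends of converging genes there is usually no promoter.

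The sequences between some of these genes show how little DNA can separate a pair of starts. They are the plus strand of RefSeq assembly GRCm38.p6 (mm10), 5′ to 3′, with each CG in capitals, were read from RefSeq promoter windows, and hold the whole gap and nothing of either gene. The first 3 gaps held an H3K4me3 peak and were picked by fold or as a textbook pair. The next 5 held one too and were chosen after their values were seen, as a respiratory chain gene, an antigen-processing pair, the gaps with the highest H3K9me2 fold in CKO and with H3K9me2 in both genotypes, and a mitochondrial pair.
Xrcc4-Tmem167, chr13:90089609-90089666: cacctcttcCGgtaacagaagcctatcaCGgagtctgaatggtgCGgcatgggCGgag
Mettl6-Eaf1, chr14:31495060-31495078: cCGgaagtgcagCGgcctt
Atm-Npat, chr9:53536829-53536888: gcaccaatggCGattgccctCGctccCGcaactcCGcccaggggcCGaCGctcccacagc
Sdha-Ccdc127, chr13:74350241-74350316: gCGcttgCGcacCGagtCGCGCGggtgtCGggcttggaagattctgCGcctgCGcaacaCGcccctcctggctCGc
Psmb9-Tap1, chr17:34187331-34187555: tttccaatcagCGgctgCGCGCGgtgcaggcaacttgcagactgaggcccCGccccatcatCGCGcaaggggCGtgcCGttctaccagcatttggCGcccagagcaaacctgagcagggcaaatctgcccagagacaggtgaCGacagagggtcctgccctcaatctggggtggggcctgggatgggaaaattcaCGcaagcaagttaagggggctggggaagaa
Mettl25-Ccdc59, chr10:105841381-105841478: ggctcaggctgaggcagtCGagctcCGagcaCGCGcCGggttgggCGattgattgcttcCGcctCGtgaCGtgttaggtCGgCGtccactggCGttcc
Shld2-Glud1, chr14:34310652-34310726: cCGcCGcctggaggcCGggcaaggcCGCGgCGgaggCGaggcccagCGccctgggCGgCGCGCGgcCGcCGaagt
Sdhd-Timm8b, chr9:50603850-50603900: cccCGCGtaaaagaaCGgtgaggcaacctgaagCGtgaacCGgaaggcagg

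Head-to-head gaps that held no H3K4me3 peak are shown for contrast. The first 2 are the narrowest of that kind, and the third was chosen after its values were seen because it holds no CG.
Fbxo9-Cilk1, chr9:78109066-78109079: aatacaaCGgggga
Nek8-Tlcd1, chr11:78176696-78176715: ttgcagggCGgagcCGgCGa
Dusp3-Cfap97d1, chr11:101987014-101987055: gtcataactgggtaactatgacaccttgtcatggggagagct
A low CG count does not set such gaps apart one by one. The 18 bp between Ndufs3 and Kbtbd4, which did hold a peak, read as follows and hold none.
Ndufs3-Kbtbd4, chr2:90904722-90904739: ggaaatgtgcagtgactc
Over head-to-head gaps of 1 to 250 bp whose letters the promoter table holds, the 373 with a peak had 8.55 CG per 100 bases and the 29 without had 5.01.

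On chromosomes 1 to 19 the lists held 16066 peaks for H3K4me3, 3595 and 12508 for H3K9me2 in Ctrl and CKO, 2999 and 1277 for the Ctrl inputs and 10683 for the CKO input. Each peak has a fold, the authors' ratio of its summit to the local background. The fragments piled up at the summit, worked out from fold and p-value, had a median of 53 for H3K4me3 and of 6 to 9 in the other lists, so that an H3K9me2 or input peak rests on few fragments. An H3K4me3 peak lay no more than 2 kb from an end of 7 of 12 muscle genes, among them Mylpf, Tnnt3, Des, Atp2a1 and Myod1, while Acta1, Ckm, Myh1, Myh4 and Ttn had none. Of all genes with a strand, 9267 of 16456 (56.3%) had their outermost end or a start in the promoter table under a peak. That measure is narrower than 2 kb, so the muscle genes did not stand out. Short lists of other cell types had 1 of 6 (fibroadipogenic), 2 of 5 (endothelial) and 2 of 5 (blood and immune). Schwann markers had 1 of 2 and satellite cell markers 3 of 4. With so few genes these counts show no tissue pattern. Peaks from these cell types cannot be told apart in a whole-tissue list.

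H3K4me3 lay over the gaps between gene starts and hardly ever over those between gene ends. Of head-to-head gaps, 492 of 534 (92.1%, 89.5 to 94.3) were overlapped by an H3K4me3 peak, where 72.3% of head-to-head gaps of any width were. With the H3K4me3 peaks that overlap an input peak left out, a step chosen after the data were seen, it was 247 of 534 (46.3%). The same step left 538 of all 1924 gaps (28.0%). It drops a whole peak for an input overlap anywhere along it. Gaps of any width and lone starts were not counted this way, so the drop cannot be called particular to these gaps. Of tail-to-tail gaps, a peak of the full H3K4me3 list overlapped 2 of 406 (0.493%, 0.0597 to 1.77), against 8.76% of tail-to-tail gaps of any width. Same-direction gaps lay in between with 197 of 432 (45.6%, 40.8 to 50.4), near the 42.3% of same-direction gaps of any width. For all 1924 gaps the count was 916 (47.6%, 45.4 to 49.9), against a background of 41.9% over gaps of any width, so the gaps as a whole stood close to the background and the orientations stood far apart. Windows of 250 bp just outside genes that flank no short gap gave the same picture for lone ends. There 41.1% of 13604 windows at gene starts and 0.529% of those at gene ends held an H3K4me3 peak.

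**Figure D1:**
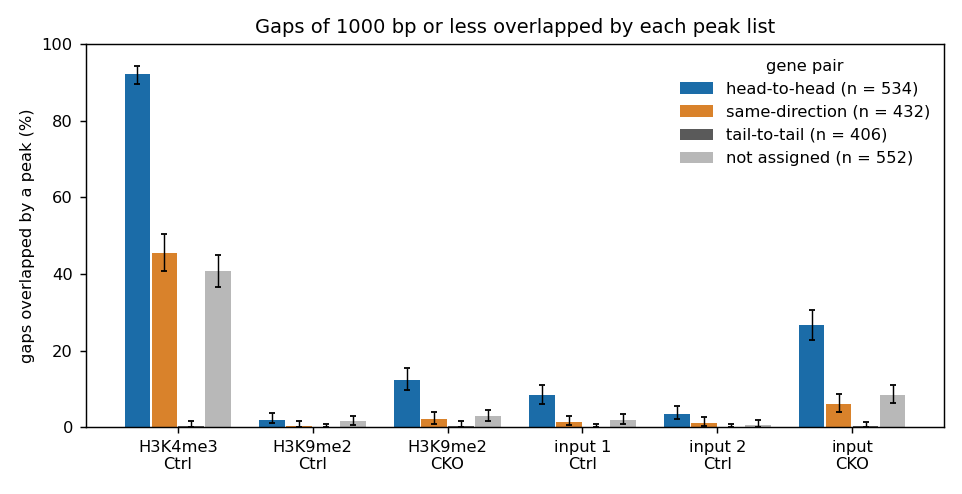
Share of gaps of 1000 bp or less (vertical axis, percent) overlapped by a peak of each list (horizontal axis), by orientation of the gene pair, with exact 95% binomial intervals as error bars. Head-to-head gaps have the tallest bar in each list, 92.1% for H3K4me3 and 26.6% for the CKO input, and tail-to-tail gaps are near 0 in each.

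The share over head-to-head gaps was high at each width up to 1000 bp and lower in much wider gaps, with no step at that limit. It was 95.1% of 142 gaps of 0 to 50 bp, 95.3% of 127 gaps of 51 to 100 bp and 82.9% of 41 gaps of 501 to 1000 bp. The interval of the last was 67.9 to 92.8. In wider head-to-head gaps the share was 80.8% at 1001 to 2000 bp (67.5 to 90.4), 62.9% at 2001 to 5000 bp and 67.6% at 5001 to 10000 bp. This was so although a wider gap offers more room for a peak. Same-direction gaps went the other way at the narrow end, with 4 of 15 at 0 to 50 bp and 11 of 40 at 51 to 100 bp, against 50.3% of 189 gaps at 501 to 1000 bp. Their intervals were wide (7.79 to 55.1 for the narrowest). Among head-to-head gaps the share by chromosome ran from 83.3% (chromosome 15, 10 of 12) to 100% (chromosome 12, 20 of 20).

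**Figure D2:**
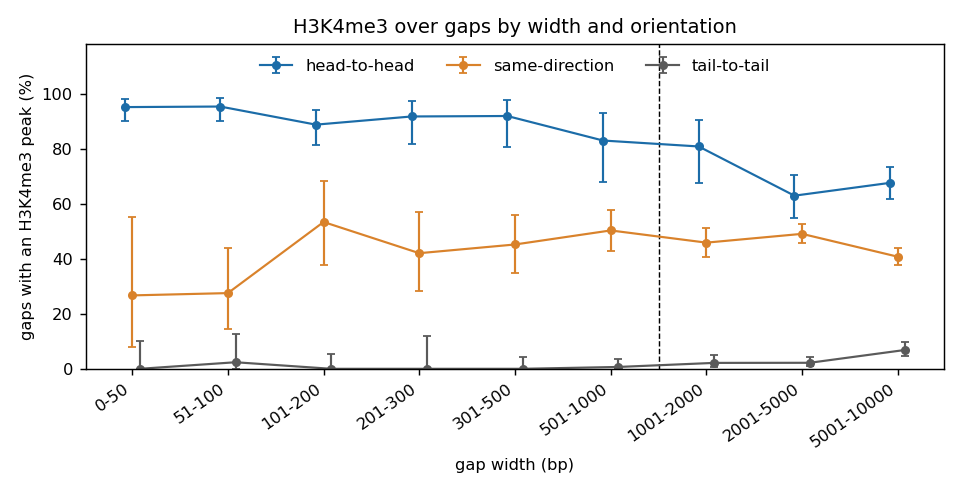
Share of gaps with an H3K4me3 peak (vertical axis, percent) by gap width in bp (horizontal axis, classes of unequal width), for each orientation, with exact 95% binomial intervals. The dashed line marks 1000 bp, the limit for the gaps described. Head-to-head gaps stay between 82.9% and 95.3% to the left of it.

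A single peak usually spanned the gap and both starts. In 440 of 534 head-to-head pairs (82.4%, 78.9 to 85.5) 1 peak covered the start of both genes, in 51 (9.55%) exactly 1 start was covered, and in 42 neither. Only 1 head-to-head gap held 2 peaks. Spanning was nearly complete in narrow gaps and less common in wide ones. Of the gaps with a peak, 1 peak covered both starts in 99.3% at 0 to 50 bp, in 93.1% at 101 to 200 bp and in 35.3% at 501 to 1000 bp. Peaks over head-to-head gaps had a median width of 986 bp, so a peak that touches a narrow gap will usually reach both starts. Whether spanning differs from what these widths would give was not tested.

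Peaks over head-to-head gaps were wider than those at other gene starts and about as high. Their median width was 986 bp (493 peaks, interval of the median 939 to 1019), against 859 bp (847 to 868) for 5334 peaks at starts of genes that flank no short gap and 745 bp (709 to 781) for 197 peaks over same-direction gaps. Median fold was 11.5 over head-to-head gaps, 11.6 at the other starts and 11.2 over same-direction gaps, and the intervals of the medians overlapped. Median summit fragments were 77 (72 to 81), 73 (71 to 74) and 62 (56 to 67). Width rose with the gap only a little, from a median of 903 bp at gaps of 0 to 50 bp to 1133 bp at 501 to 1000 bp, while the median fold went from 12.3 to 9.54.

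**Figure D3:**
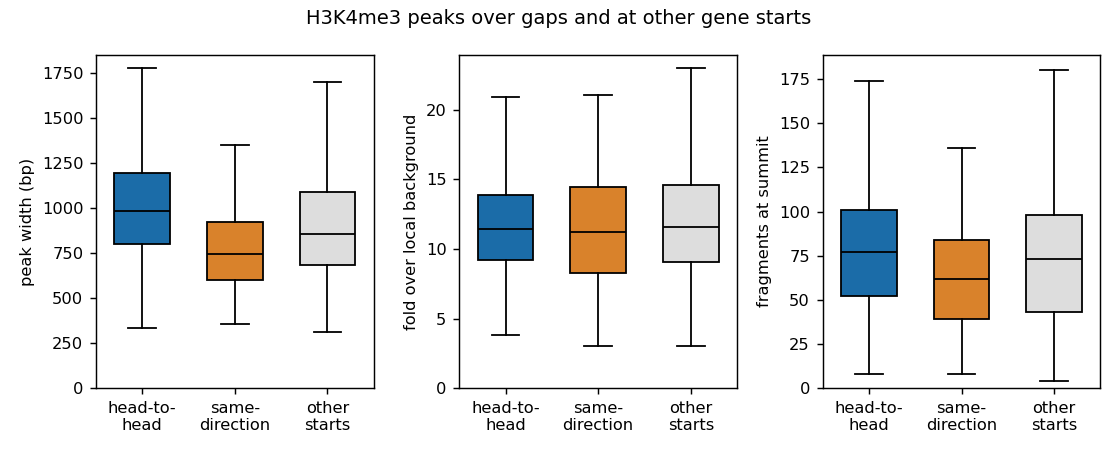
Width in bp, fold over local background and fragments at the summit (vertical axes, from 0) of H3K4me3 peaks over head-to-head gaps, over same-direction gaps and at other gene starts. Boxes give quartiles and median and whiskers the most distant value within 1.5 times the quartile range; head-to-head peaks have the highest median width, 986 bp, and folds of all 3 sets have medians between 11.2 and 11.6.

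The summit, the most covered base of a peak, lay inside one of the genes far more often than between them. Of 493 head-to-head peaks, 63 (12.8%, 9.96 to 16.1) had the summit in the gap, 223 on the side of the left gene and 207 on that of the right gene. Head-to-head gaps had a median width of 99.5 bp and these peaks one of 986 bp, so the gap was a small part of the peak. Whether the share of summits in the gap differs from what these widths would give was not tested. The median distance from the gap centre was 209 bp, and summits outside the gap lay a median of 171.5 bp inside the gene. Peaks reached a median of 411 bp into the left and 439 bp into the right gene. Over same-direction gaps 168 of 197 summits lay on the side of the downstream gene and 22 in the gap. They were a median of 145 bp past that gene's start, where lone gene starts had 166 bp. In both of these orientations most summits sat a short way inside a gene, on either side of the centre for head-to-head pairs.

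**Figure D4:**
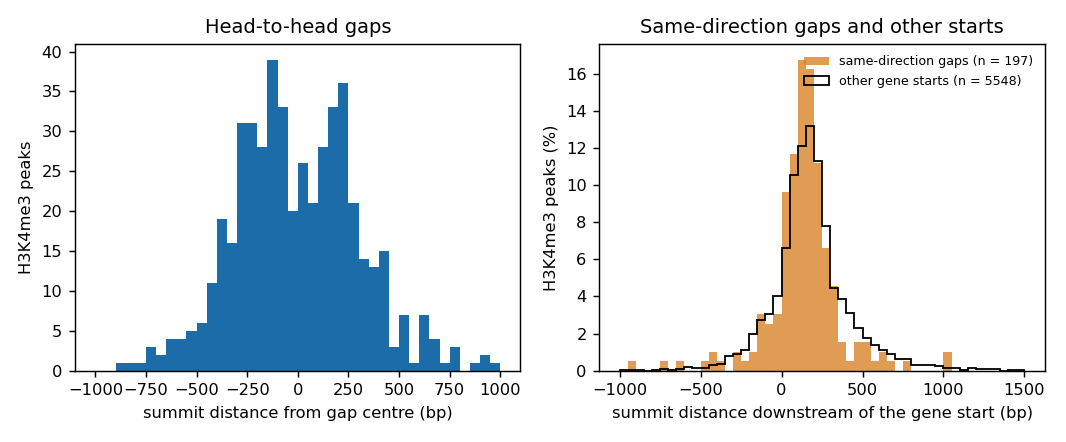
Number or percent of H3K4me3 peaks (vertical axes) by summit position in bp, in classes of 50 bp. Left, distance from the centre of head-to-head gaps; right, distance downstream of the gene start for same-direction gaps (filled) and for other gene starts (line). Head-to-head summits lie on both sides of the centre, at a median distance of 209 bp.

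**Figure D5:**
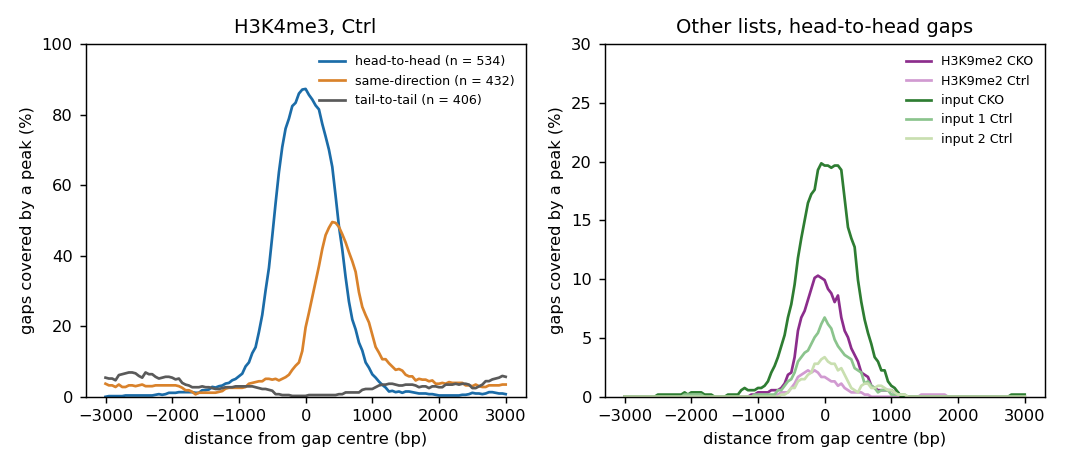
Share of gaps covered by a peak (vertical axes, percent) at each distance from the gap centre in bp (horizontal axes, every 50 bp). Left, H3K4me3 for each orientation, with same-direction pairs turned so that transcription runs to the right; right, the other 5 lists over head-to-head gaps. H3K4me3 covers 87.3% of head-to-head gaps at the centre and 5.81% and 6.37% at 1000 bp to the left and right.

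The 10 head-to-head gaps of highest H3K4me3 fold had folds from 18.1 to 21.1. Xrcc4, a partner of DNA ligase IV in end joining, and Tmem167, a small Golgi membrane protein, start 58 bp apart. Their shared peak had the highest fold of the head-to-head gaps, 21.1, and the most summit fragments, 175. It also overlapped a Ctrl H3K9me2 peak of fold 6.65 (10 fragments), with no peak in the CKO H3K9me2 list or the 3 inputs. The zinc finger genes Zfp944 and Zfp758, 1 bp apart, followed with a fold of 20.9, and shared reads make the member uncertain in such families. Mettl6, a tRNA methyltransferase, and Eaf1, a partner of the ELL elongation factors, had 19.8 over 19 bp. Zfp784-Zfp580 had 19.6, and Hacl1, a peroxisomal lyase, with Btd (biotinidase) had 19.5. Next were Cops2-Galk2 (19.3), Dzip3-Cip2a (19), Cir1-Scrn3 (19), Rbak-Spdye4b (18.1) and Sdha-Ccdc127 (18.1), in which Sdha encodes the catalytic subunit of respiratory complex II.

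The widest peaks were low in fold. The widest, 2517 bp, lay over the 105 bp between Hnrnpa2b1, an RNA-binding protein gene, and Cbx3, which encodes HP1 gamma, a protein that binds methylated H3K9, and had a fold of 5.12. Pcid2-Cul4a followed with 2076 bp and a fold of 5.84, and Dcaf6-Mpc2, of which Mpc2 encodes a subunit of the mitochondrial pyruvate carrier, with 2048 bp and 9.44. Their summits still held 78, 81 and 136 fragments, at or above the median of 77. Fold is relative to the local background and does not rank peaks by height. The most fragments after Xrcc4-Tmem167 were at Elavl1-Ccl25 (174), Nae1-Car7 (163), 1700056E22Rik-Dusp10 (160) and Sdhaf2-Cpsf7 (155).

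Pairs known from textbooks as bidirectional were members in 6 of the 15 cases looked up, and all 6 held H3K4me3, beside 92.1% of all head-to-head gaps. Atm, the kinase that signals DNA breaks, and Npat, which drives histone transcription, start 60 bp apart under a peak of 1136 bp, fold 12.5 and 97 fragments, with the summit in the gap. The same gap had a Ctrl H3K9me2 peak of fold 4.12, a peak of 5.31 in Ctrl input 2 and one of 5.40 in the CKO input. Psmb9, an immunoproteasome subunit, and Tap1, a peptide transporter, shared a peak of fold 11.1 with the summit on the Tap1 side. Mrps12-Sars2, a mitochondrial ribosomal protein with the mitochondrial seryl-tRNA synthetase, had 10.8, and Ndufs3-Kbtbd4 had 15.8. Gart, of purine synthesis, and Son, a splicing cofactor, lie 851 bp apart and shared a peak of 1589 bp and fold 9.52. Mcm4-Prkdc, a helicase subunit and a repair kinase, had 12.6, although the strand of these genes was not assigned.

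Where a head-to-head peak covered a single start, the uncovered side included muscle and other tissue-restricted genes (pairs named here were chosen after their values were seen). They are some of 51 such pairs, whose covered and uncovered genes were not counted by tissue, so they show no tissue pattern. Mylpf, the fast-muscle myosin light chain, lies 379 bp from Tbc1d10b. The peak of 1450 bp and fold 7.62 covered the start of Tbc1d10b and ended inside the gap, short of the RefSeq start of Mylpf. It is also the peak that counted for Mylpf in the check of muscle genes. Myom1, an M-band protein of the sarcomere, was uncovered beside Myl12a (fold 11.2), Smtnl1 beside Timm10 (8.39), Asb15 beside Ndufa5 (8.06) and Inha, the inhibin alpha chain, beside Obsl1 (8.98). The same arrangement held for the taste receptor Tas1r1 beside Nol9 (12.2) and for Foxa3, a liver transcription factor, beside Sympk (12.7). Ubiquitous genes were on the uncovered side as well, such as Uqcrh, of respiratory complex III, beside Lrrc41 (8.02) and Urod, of heme synthesis, beside Hectd3 (14.6). At the imprinted pair Peg3-Usp29, 96 bp apart, the peak (fold 8.45) covered Peg3. Gaps with a single covered start had a median width of 324 bp, against 83 bp where both were covered. A start here is the outermost end in RefSeq, and the start used in muscle may lie further inside the gene. The promoter table lists that end as a start for 620 of the 1068 genes of head-to-head pairs (58.1%).

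The 42 head-to-head gaps without a peak ranged from those with a peak close by to those far from any. The nearest peak was within 500 bp for 16 of them, within 2 kb for 24 and beyond 10 kb for 15, with a median of 1401.5 bp. For 19 pairs another listed start of either gene lay under a peak. Among the 10 narrowest, the nearest peak was 99 bp away at Fbxo9-Cilk1 (14 bp gap), 6 bp at Fam229b-Tube1, 14 bp at Enkd1-4933405L10Rik and 273 bp at Rad51c-Tex14. It was 1366 bp at Nek8-Tlcd1, 1437 bp at Rnf151-Rps2 and 1948 bp at Dusp3-Cfap97d1. It was 8397 bp at Slc30a3-Dnajc5g, 14178 bp at Acp4-Gm15517 and 16362 bp at Best1-Rab3il1.

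Pairs far from any peak included genes of other tissues (named after their values were seen). Duox2-Duoxa2, the thyroid oxidase and its maturation factor, lay 49550 bp from the nearest H3K4me3 peak. Bhmt2-Dmgdh, of choline breakdown in liver, lay 97026 bp away, Smc1b-Ribc2, with a meiotic cohesin gene, 73854 bp away and the olfactory receptors Olfr181-Olfr183 200051 bp away. The major urinary protein pair Mup15-Mup-ps12 lay 767573 bp away, in a cluster of near-identical genes where reads cannot be placed with certainty. None of these 42 gaps held a peak of the other 5 lists, which at 3 counts of 42 allows a share of up to 7.14% (exact interval up to 8.41%).

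The 2 tail-to-tail gaps with H3K4me3 were H2ac21-H2ac20 and Duox1-Shf. H2ac21 and H2ac20, short histone genes, lie 58 bp apart. Their peak of 1247 bp (fold 10.4, 108 fragments) had its summit 120 bp from the listed start of H2ac21, and it was the only peak to overlap 2 of the gaps, the other being H2ac20-H2bc21. Between Duox1 and Shf the peak of 838 bp (fold 15.2, 104 fragments) lay partly over the end of Shf, and the nearest listed start, that of Shf, was 19947 bp from the summit. A CKO H3K9me2 peak (fold 5.65, 9 fragments) lay in the same gap, with no input peak. The tail-to-tail genes were not unmarked at their own starts. There 488 of 812 starts (60.1%) lay under an H3K4me3 peak, both starts in 154 of 406 pairs, against 40.8% for genes that flank no short gap and 87.4% for genes of head-to-head pairs. Counting a gene as marked if its outermost end or any start in the promoter table lay under a peak, the shares were 74.4%, 51.9% and 90.2%.

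In same-direction pairs the peak belonged to the downstream start. That start was covered in 194 of 197 gaps with a peak, and a peak over the gap reached the upstream gene's start in 3. The share hardly differed with the state of the upstream gene's own start. The gap held a peak in 115 of 261 pairs (44.1%, 37.9 to 50.3) with the upstream start covered and in 82 of 171 (48%, 40.3 to 55.7) without. The highest folds were at the starts of Jpt2 (Jpt2-Cramp1l, 21.0), Kctd5 (Kctd5-Pdpk1, 19.9), Rogdi (Rogdi-Glyr1, 19.8), Nupr1l (Zbed5-Nupr1l, 19.7) and Mtg2, a mitochondrial ribosome GTPase (Ss18l1-Mtg2, 19.7). Upstream genes of these pairs had their own start covered in 60.4% and downstream genes in 44.9%. The start of a gene of another type, such as a noncoding RNA, lay in 10 of the 432 gaps.

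Gaps not assigned to an orientation held H3K4me3 in 225 of 552 (40.8%, 36.6 to 45.0), near the 41.8% of such gaps of any width. Among them Actn3, the fast-fibre alpha-actinin, lies 758 bp from Zdhhc24. This gap held 2 peaks, the higher with a fold of 8.70 and its summit on the Zdhhc24 side.

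Genes of mitochondria and of protein synthesis flanked a gap more often than coding genes at large, which was not tested. It was 76 of 171 genes for the respiratory chain and mitochondrial ribosome and 9 of 23 for mitochondrial import. For tRNA synthetases it was 13 of 38, for cytosolic ribosomal proteins 22 of 83 and for all coding genes 3487 of 20661. These lists were not alone in this. It was 43 of 67 for replication histones, 11 of 25 for DNA repair and 12 of 29 for H3K4 and H3K9 methylation genes. Hox genes had 8 of 39. It was lower for numbered zinc finger genes (41 of 388), muscle genes (3 of 35) and collagens (3 of 42). Beta-defensins (1 of 42) and olfactory and vomeronasal receptors (7 of 1458) were lower as well. The respiratory chain and mitochondrial ribosome genes flanked 79 gaps, of which 56 held H3K4me3, beside 47.6% of all gaps. Among these were 36 of 37 head-to-head and 0 of 13 tail-to-tail gaps. Examples are Ndufaf2-Ercc8 (fold 18), an assembly factor of complex I beside a transcription-coupled repair gene, and Esf1-Ndufaf5 (17.6). Genes of mitochondrial import had 5 of 5 head-to-head gaps with a peak, including Timm9-2700049A03Rik (16.4), Sdhd-Timm8b (15.0) and Timm23-Parg (12.3). For tRNA synthetases it was 6 of 6, including Lyrm4-Fars2 (13.2), and for cytosolic ribosomal proteins 7 of 8, including Rps27-Rab13 (14.8) and Lrsam1-Rpl12 (12.7). Numbered zinc finger genes had 11 of 12. These head-to-head counts stand beside 92.1% of all head-to-head gaps, and none was tested against it. Over all their gaps, import genes had 7 of 10 with a peak and tRNA synthetases 11 of 15. Cytosolic ribosomal proteins had 13 of 29 and numbered zinc finger genes 19 of 37.

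Replication histone genes and DNA repair genes had some head-to-head gaps without a peak. Histone genes had 7 of 10 with a peak, beside 92.1% of all head-to-head gaps, a difference that was not tested, with a median fold of 8.42 over all their gaps with a peak. The exceptions were H2ac8-H2bc8 and H2bc7-H2ac7, 62 and 91 bp from the nearest peak, and H2bc1-H2ac1, 170129 bp away. These genes are near-identical copies, and reads shared between them make single members uncertain. DNA repair genes had 4 of 6, with Palb2-Dctn5 (17.9) and Ankrd49-Mre11a (16.6) among those with a peak. Their exceptions were Rad51c-Tex14 and Brca1-Nbr1, 273 and 476 bp from the nearest peak. A listed start of Rad51c and one of Nbr1 lay under a peak. Enzymes and readers of H3K4 and H3K9 methylation had 3 of 3, among them Setdb2-Cab39l (14.8, with 148 fragments) and Cbx5-Hnrnpa1 (11.9). Over all their gaps it was 5 of 14, beside 47.6% of all gaps. Olfactory and vomeronasal receptor genes, 1458 on these chromosomes, flanked 5 gaps, none with a peak. Hox genes flanked 4 gaps, of which Hoxa5-Hoxa6 held a peak (8.49).

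The promoter windows of head-to-head genes differed in letters with the presence of a peak. RefSeq windows of 300 bases (250 before and 50 after a gene's start, GRCm38.p6) were taken at the listed start nearest the outermost end for the 1068 genes of these pairs, and windows of a pair overlap where the gap is short. Median GC was 62.3% for 984 windows at gaps with a peak and 54.8% for 84 at gaps without, against 56.7% for all 16456 windows. CpG observed over expected had medians of 0.856, 0.552 and 0.597. Starts of genes flanking no short gap that did hold a peak had 63.3% GC and 0.806, so base composition was similar among marked starts of both kinds.

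Motif matches on both strands were counted for 5 words. CCGGAAG, the core bound by ETS factors, was in 29.0% of windows at head-to-head gaps with a peak (26.1 to 31.9), in 9.52% of those without (4.20 to 17.9), in 12.3% of all windows and in 18.5% of other marked starts (17.5 to 19.5). The Mettl6-Eaf1 gap shown above opens with it. Downstream genes of same-direction gaps with a peak had 27.9% (21.8 to 34.7). The NRF1 palindrome was in 3.56%, 0%, 1.37% and 2.40% of the first 4 sets. CGCG was in 83.8%, 44.0%, 50.8% and 80.3%. TATAAA went the other way, with 5.18% at head-to-head gaps with a peak, 16.7% without, 13.5% over all windows and 5.98% at other marked starts. CCAAT was in 43.9%, 56.0%, 39.1% and 38.4%. These counts take no account of base composition. Where a head-to-head gap is short, both windows of the pair can count the same match, so the intervals for these windows are too narrow. Such a window can also take in the start of the other gene, unlike one at a lone start.

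H3K9me2 and input peaks were rare over the gaps, and nearly all lay where H3K4me3 did. H3K9me2 in Ctrl lay over 22 gaps (1.14%, where 7.85% of gaps of any width held one), and in CKO over 93 (4.83%, background 18%). Ctrl inputs lay over 62 (3.22%, background 7.41%) and 28 (1.46%, background 3.23%), and the CKO input over 216 (11.2%, background 21.4%). At q of 1e-05 or less, H3K9me2 lay over 3 gaps in Ctrl (0.156%) and 23 in CKO (1.2%), either Ctrl input over 7 (0.364%) and the CKO input over 29 (1.51%). Gaps of any width include far wider ones. In 250 bp windows at the starts of other genes the shares were 1.28% and 5.03% for H3K9me2 in Ctrl and CKO, 3.09% and 1.34% for the Ctrl inputs and 12.4% for the CKO input, all near those of the gaps. All 22 Ctrl and 92 of 93 CKO H3K9me2 gaps held H3K4me3, as did 62 of 62 and 28 of 28 Ctrl input gaps and 211 of 216 CKO input gaps. Most such windows at the starts of other genes held H3K4me3 too. In these windows it was 153 of 174 (Ctrl) and 612 of 684 (CKO) for H3K9me2. For the inputs there it was 381 of 421 and 168 of 182 in Ctrl and 1549 of 1693 in CKO. Of the 1008 gaps without H3K4me3, 0 held a Ctrl H3K9me2 peak, which at 3 counts allows a share of up to 0.298% (exact interval up to 0.365%), and 1 held a CKO one.

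More gaps held a peak in the CKO lists, which were also longer. As a share of its own list, 0.612% of Ctrl and 0.744% of CKO H3K9me2 peaks lay over a gap, as did 2.07% and 2.19% of the Ctrl input peaks, 2.02% of the CKO input peaks and 5.71% of the H3K4me3 peaks. Of the gaps with a peak, head-to-head gaps were 11 of 22 in Ctrl H3K9me2, 66 of 93 in CKO H3K9me2 and 142 of 216 in the CKO input. Head-to-head gaps were 534 of all 1924 gaps and 492 of the 916 with H3K4me3, where nearly all these peaks lay. Not assigned gaps were 9 of 22, 16 of 93 and 47 of 216. Tail-to-tail gaps were 0, 2 and 1 in the same lists, where 250 bp windows at the ends of other genes had shares of 0%, 0.14% and 0.162%. Both Ctrl inputs had 0 of 406 tail-to-tail gaps, which at 3 counts allows a share of up to 0.739% (exact interval up to 0.904%), beside 0.0368% and 0% of those windows. The 2 tail-to-tail gaps with CKO H3K9me2 held peaks free of input, beside 0.118% of the windows.

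Among head-to-head gaps that carried H3K4me3, the other lists had shares close to those at lone marked starts, over unlike widths. Head-to-head gaps had a median of 99.5 bp, and the windows at lone starts were 250 bp. H3K9me2 in CKO lay over 13.4% of these gaps (10.5 to 16.7) and over 11% of 5587 marked windows at other starts (10.1 to 11.8). In Ctrl the values were 2.24% and 2.74%. The CKO input lay over 28.9% (24.9 to 33.1) and 27.7% (26.6 to 28.9), Ctrl input 1 over 9.15% and 6.82% and Ctrl input 2 over 3.86% and 3.01%. The interval for Ctrl input 1 at the gaps was 6.75 to 12.0, and none of these differences was tested.

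Input and H3K9me2 peaks over head-to-head gaps accompanied well-covered H3K4me3 peaks. H3K4me3 summits at gaps with a CKO input peak had a median of 94.5 fragments and a fold of 12.6, against 70 and 11.2 at gaps without. For CKO H3K9me2 the medians were 98.5 and 73 fragments, with folds of 11.1 and 11.6. The part of the signal seen in the inputs in these results was not tested. Leaving out the H3K4me3 peaks that overlap an input peak, as above, left H3K4me3 over 33.3% of same-direction and 0.493% of tail-to-tail gaps.

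H3K9me2 peaks that overlapped no input peak along their length lay over 9 gaps in Ctrl (0.468%, beside 0.397% of windows at other starts) and 35 in CKO (1.82%, beside 1.76%). With q of 1e-05 or less required of H3K9me2 and input peaks alike, the shares were 0.104% and 1.09%. Weaker input peaks no longer counted there, so input-free is a looser term at that limit. Without that limit on q, the shares over head-to-head gaps were 0.936% in Ctrl and 4.49% in CKO. At head-to-head gaps with H3K4me3 they were 1.02% in Ctrl and 4.88% in CKO (3.15 to 7.17). Beside these stand 0.716% and 3.42% (2.96 to 3.93) in 250 bp windows at other marked starts, which differ from the gaps in width. The highest CKO fold was at Mettl25-Ccdc59, 98 bp apart, with 10.8 and 21 fragments, and neither the Ctrl H3K9me2 list nor the inputs had a peak there. Gsto1-Gsto2, glutathione transferases in the same direction, had 8.96 (15 fragments). Lyrm4-Fars2, an iron-sulfur cluster factor with the mitochondrial phenylalanyl-tRNA synthetase, had 7.77, Anxa5-1810062G17Rik 7.54 and Rita1-Ddx54 7.13. In Ctrl the highest were Rab4b-Mia (6.94), Xrcc4-Tmem167 (6.65), Acot13-Tdp2 (5.79), Wrn-Purg (5.68) and Srd5a1-Nsun2 (5.34).

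Both H3K9me2 lists had a peak over 10 of the 1924 gaps, and all 10 held H3K4me3. Windows at other starts were not counted for both lists at once, so whether 10 is many cannot be said. Shld2-Glud1, of which Glud1 encodes mitochondrial glutamate dehydrogenase, had H3K9me2 folds of 4.91 in Ctrl (6 fragments) and 6.38 in CKO (10 fragments) inside an H3K4me3 peak of fold 10.1 and 1434 bp. None of the 3 inputs had a peak there. Glyr1-Ubn1, of which Ubn1 encodes a histone chaperone subunit, had 4.31 and 3.89, with 5 fragments in each, also without an input peak. The other 8 were Nt5c1b-Rdh14 (6.85 in Ctrl and 7.83 in CKO), Pdcd10-Serpini1 (5.66 and 4.82), Wrn-Purg (5.68 and 4.68), Slc39a6-Elp2 (5.50 and 4.77), Tcf24-Ppp1r42 (4.80 and 5.80), Zfp654-Cggbp1 (4.80 and 7.32), Mcm4-Prkdc (4.75 and 6.82) and Spata1-Gng5 (4.31 and 4.30). Of these 8, an input peak also lay over the gap in all but Wrn-Purg.

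All 3 inputs had a peak over 4 of the 1924 gaps, each with H3K4me3, and windows at other starts were not counted for this either. Pxmp2-Pole, the latter a DNA polymerase subunit, had input folds of 7.52 and 4.83 in Ctrl and 5.07 in CKO. Tmtc3-Cep290, the latter a ciliary protein, had 5.14, 3.87 and 5.36, and also a CKO H3K9me2 peak of 5.18. Gnl3-Pbrm1 had 4.99, 3.68 and 7.83, and Slc35a5-Atg3, the latter an autophagy enzyme, 5.84, 3.76 and 5.03. Except at Tmtc3-Cep290, no H3K9me2 peak lay over these gaps.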

How the data were processed

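CUT&RUN peak lists of 6 libraries were used, 1 for each library, grouped by the labels' titles and genotypes. The submitters' processing notes name Bowtie2, MACS2 and the build mm10, with tool versions not given in the sources used here. Likewise unstated were the making of the input, whether it served as control, and whether libraries came from separate animals. For each peak the authors deposited a position, a score, a fold (ratio of the summit to its local background), p-value and q-value as −log10, and the summit offset. The lists stop near q of 0.05.

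Gene positions were taken from RefSeq (GRCm38.p6) and strand from its promoter table. The members and gene lists were chosen with earlier results of these data known. Overlap meant 1 bp or more. A gap of 0 bp was counted as overlapped if a peak held a base on either side of the join. Summit fragments were the whole number that gives the listed fold and −log10 p of a Poisson tail within 0.1%, found for 99.8% to 100% of peaks in each list. Named pairs were the 10 highest by fold, 5 widest and 5 with most fragments over head-to-head gaps, the 10 narrowest without a peak, the 5 highest tail-to-tail, same-direction and input-free H3K9me2 gaps, those in both H3K9me2 lists or all 3 inputs, textbook pairs, and up to 4 for each gene list. Beta-defensin genes flanked 1 gap, without a peak, collagen genes 3 and muscle genes 4, with 2 each holding H3K4me3. Protocadherin and keratin-associated genes flanked none. Overlap, orientation and fragment counts were tested on simulated data. Scripts ran under Python 3.11.15 with scipy 1.17.1, pandas 2.3.3, numpy 2.4.6 and matplotlib 3.10.9. Alternatives were stricter peaks (by fold or q), a larger overlap, other gap limits, gaps inside a coding gene left out, chromosome X added and each Ctrl input left out.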

Additional observations from a re-analysis of the deposited data

How the results depend on the processing

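No paired analysis was possible because each mark and genotype has 1 library and the result comes from no test. Of 92 alternatives to 13 values, 62 stayed within the interval of the value reported. The medians of width and fold, the summit share and the tail-to-tail share did so under each alternative run for them. The order head-to-head, same-direction, tail-to-tail held under each. With peaks no lower in fold than their list's median, H3K4me3 lay over 31.3% of all, 61.8% of head-to-head and 26.9% of same-direction gaps, and shares were 0.572% (Ctrl H3K9me2), 1.77% (CKO H3K9me2), 0.936% (input-free CKO), 2.44% (either Ctrl input, 4.21% as reported) and 6.08% (CKO input). With peaks covering at least 50% of the gap, H3K4me3 shares were 37.2%, 87.3% and 19.9%, and CKO H3K9me2 had 3.59%, Ctrl input 3.01% and CKO input 7.54%. At q of 1e-05 or less, Ctrl H3K9me2 had 0.156%, CKO H3K9me2 1.2%, input-free H3K9me2 0.104% in Ctrl and 1.09% in CKO, Ctrl input 0.364% and CKO input 1.51%. Both the fold and the q limit also applied to the inputs, so input-free there means free of input peaks passing the same limit. Gaps of 500 bp or less gave 53.5% for H3K4me3, 6.06% for CKO H3K9me2 and 13.0% for the CKO input, and gaps of 2000 bp or less gave 42.8% for H3K4me3 and 9.45% for the CKO input. Leaving out either Ctrl input gave 1.46% to 3.22% for Ctrl input. Without H3K4me3 peaks that overlap an input peak, chosen after seeing the data, the shares were 28.0% of all, 46.3% of head-to-head and 33.3% of same-direction gaps. The cause was not tested.

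At medians of 6 to 9 summit fragments, absence of an H3K9me2 or input peak does not show absence of signal. The strand table leaves 552 gaps unassigned, and RefSeq's outermost ends need not be the starts used in muscle.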
